A study of Mus musculus with 12 samples.

Results

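The genes described here encode 10 chains of receptors for myeloid growth factors and cytokines: Csf3r, Csf2ra, Csf2rb, Csf2rb2, Il6ra, Il6st, Ifngr1, Ifngr2, Ifnar1 and Ifnar2. They were taken by name from a count table of 23420 genes, and all 10 were among the 9742 genes with enough counts to be tested. RNA came from monocytic myeloid-derived suppressor cells (M-MDSCs), an immature myeloid population that the study sorted as CD11b+Ly6G-Ly6Chi cells from bone marrow, with the tibia given as the tissue in the sample labels, and examined as osteoclast progenitors. The groups were 6 aged mice of 24 months and 6 young mature mice of 6 months. All 12 were males of the inbred strain C57BL/6JNIA with no transgene or treatment named in the labels, and each gave 1 library. The question was how the transcriptome of these cells differed with age.

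Each of these receptors sits in the cell membrane and has no kinase of its own. Binding of the ligand brings chains together, which activates Janus kinases bound to their tails, and these phosphorylate STAT transcription factors. In the marrow, granulocyte colony-stimulating factor (G-CSF) and granulocyte-macrophage colony-stimulating factor (GM-CSF) direct the production and survival of granulocytes and macrophages, interleukin 6 and its relatives act on myeloid and bone cells, and the interferons switch on antiviral and antigen presentation genes.

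Of the 10 genes, 4 were higher in aged than in young mice (Csf2rb, Csf2rb2, Ifngr1 and Ifnar2), 1 was lower (Il6ra) and 5 did not pass the threshold, by edgeR's quasi-likelihood test (Benjamini-Hochberg adjusted p under 0.05, taken over every gene tested). Of all genes tested, 45.4% passed, 22.4% as higher and 23% as lower, so a call is common in this comparison. The values of the aged and young mice did not overlap for 3 of the 10 (Csf2rb2, Il6ra and Ifnar2) and for 21.8% of all genes tested. The median log2 fold change, aged minus young, was 0.13 over the 10 and 0.01 over all genes tested. Levels are in CPM, counts scaled to a common library total after TMM normalization, and are given as mean ± SD with n = 6 mice an age.

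The marker genes did not all go with the monocytic label. Genes of neutrophils summed to 90423 to 166346 CPM per library. By their means Ngp led at both ages, followed by S100a8 in aged and Ltf in young mice. The 12 genes fixed for classical monocytes summed to 3446 to 4627 CPM, led by Itgam and Ly6c2. Most of that sum was Itgam, at 2895 ± 297 CPM in aged and 3376 ± 118 CPM in young mice. It encodes CD11b, which was used in the sort and is not particular to monocytes. Among defining monocyte genes Ccr2 was at 31.3 ± 22.2 CPM in aged and 37.1 ± 14.3 CPM in young mice, and Csf1r at 141 ± 37.0 and 134 ± 15.9 CPM. Of the 12 monocyte genes 2 were called higher (Ly6c2 at 0.54 and Cd14 at 1.11, both without overlap) and 2 lower (Itgam at -0.22 and Klf4 at -1.13). The summed neutrophil level was higher in every aged mouse (141309 CPM or more) than in every young mouse (139960 CPM or less), with 9 of 14 of its genes called higher and 0 lower. Resident macrophage genes summed to 661 to 1709 CPM in aged and 419 to 595 CPM in young mice, with 10 of 10 tested genes higher, and in the proliferating cell list Mki67 and Top2a were lower among 11 tested. Young mice 5 and 6 stood apart, with the lowest neutrophil sums (90423 and 91879 CPM, against 120989 CPM or more in the other young mice) and the highest proliferation sums (1390 and 1364 CPM, against 927 CPM or less elsewhere). Aged mouse 1 stood apart by the highest sums of resident macrophage genes (1709 CPM) and dendritic cell genes (846 CPM, against 294 CPM or less elsewhere). It was also the highest for stromal and endothelial (106 CPM, against 51.1 CPM or less), megakaryocyte and platelet (21.6, against 6.64 or less), T and NK cell (37.9, against 15 or less) and B and plasma cell genes (21.9, against 11.2 or less). Aged mouse 5 stood apart in interferon-induced genes, with the highest level of the 12 mice for Ifit1, Ifit3, Isg15, Irf7, Irf9 and Usp18. In such bulk RNA, fewer cells of a type and less RNA per cell cannot be told apart, and the part of cell composition in the differences below was not tested. Libraries held 4613239 to 16300374 counted fragments, and each of the 10 genes had at least 15 counts in every mouse.

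**Figure D1:**
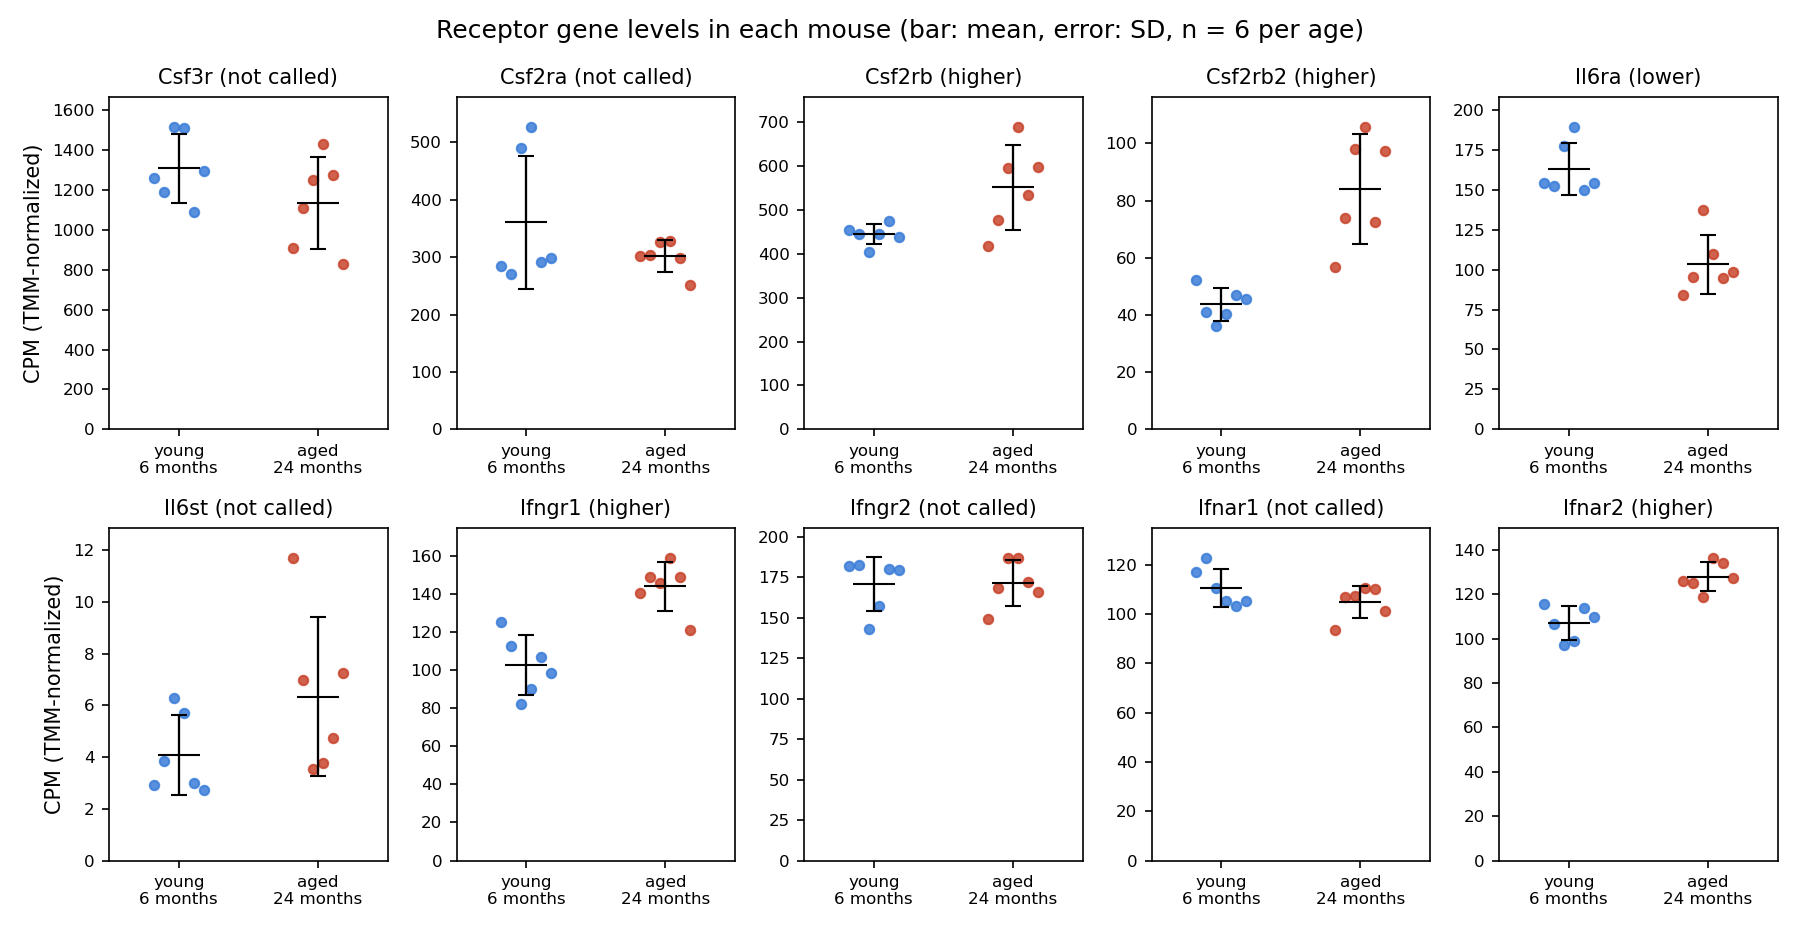
CPM of each of the 10 receptor genes (vertical axes, TMM-normalized, from 0) in the 6 young and 6 aged mice, 1 point per mouse, with the mean as a bar and the SD as error; each title gives the edgeR call in aged mice. For Csf2rb2, Il6ra and Ifnar2 no aged point lies in the range of the young points, while 2 young points of Csf2ra stand far above the other 4.

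Csf3r, at chr4:126024659-126044975 on the plus strand of mm10, encodes the receptor for G-CSF, which works as a pair of the same chain and drives neutrophil production. It had the highest level of the 10 genes. Aged mice ranged from 831 to 1433 CPM with a median of 1180 CPM, and young mice from 1088 to 1518 CPM with a median of 1277 CPM. The ranges overlapped, with aged mice 7 and 1 below all young mice and young mice 5 and 6 at the top of theirs. The log2 fold change was -0.21 (SE 0.129), and the call was not made (edgeR, adjusted p = 0.200). The 95% interval ran from -0.50 to 0.08.

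Csf2ra, at chr19:61224402-61228418 on the minus strand, encodes the alpha chain that gives the GM-CSF receptor its specificity. Aged mice held a narrow range of 251 to 328 CPM (median 303 CPM). Young mice ranged from 271 to 527 CPM (median 295 CPM), because young mice 5 and 6 had 491 and 527 CPM and the other 4 had 298 CPM or less. The log2 fold change over all mice was -0.26 (SE 0.161) and was not called (edgeR, adjusted p = 0.197). With young mice 5 and 6 left out its sign turned, at 0.05 (edgeR, adjusted p = 0.601).

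Csf2rb, at chr15:78325990-78351001 on the plus strand, encodes the common beta chain that GM-CSF, interleukin 3 and interleukin 5 receptors share for signalling. The 6 aged mice ranged from 418 to 690 CPM with a median of 565 CPM, and the 6 young mice from 405 to 475 CPM with a median of 445 CPM. Of the aged mice 5 lay above all young mice, and aged mouse 1 lay within the young range. The level was 552 ± 96.9 CPM in aged and 444 ± 22.9 CPM in young mice, and the log2 fold change was 0.31 (SE 0.101; edgeR, adjusted p = 0.0195). The call was lost with young mice 5 and 6 left out, where the log2 fold change was 0.26 (edgeR, adjusted p = 0.0848).

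Csf2rb2, at chr15:78282510-78305603 on the minus strand, encodes a second beta chain, found in the mouse, that serves the interleukin 3 receptor. It had the largest difference of the 10 genes. In aged mice it ranged from 56.6 to 106 CPM (median 85.5 CPM) and in young mice from 36.0 to 52.2 CPM (median 43.3 CPM). Every aged mouse was above every young mouse, with aged mouse 1 lowest and aged mouse 5 highest of the aged. The means of 84.0 ± 19.2 and 43.7 ± 5.69 CPM gave a log2 fold change of 0.95 (SE 0.140; edgeR, adjusted p = 0.000153). It was 0.84 with young mice 5 and 6 left out (edgeR, adjusted p = 0.00124).

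The 2 beta chain genes are neighbours, 20386 bases apart and on opposite strands, and they are near-identical copies, which matters for how their fragments could be counted. Over 2631 aligned coding bases (transcripts Csf2rb-206 and Csf2rb2-201 of GENCODE vM21) 95.21% were identical, and the longest identical run was 242 bases. Of all windows of the Csf2rb coding sequence, 26% of those of 50 bases, 11% of those of 100 bases and 6.49% of those of 150 bases also occurred in Csf2rb2. Counting kept only fragments with a mapping quality of at least 60, so fragments from shared stretches could be dropped or placed on the other copy, and the counts of both genes are uncertain to that degree. The first 150 coding bases are shown with the bases that differ between the copies in capitals, 6 in all, as an example of how much the copies share.
Csf2rb: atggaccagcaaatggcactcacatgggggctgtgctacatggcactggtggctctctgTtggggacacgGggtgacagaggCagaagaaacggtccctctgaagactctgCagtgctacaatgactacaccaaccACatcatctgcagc
Csf2rb2: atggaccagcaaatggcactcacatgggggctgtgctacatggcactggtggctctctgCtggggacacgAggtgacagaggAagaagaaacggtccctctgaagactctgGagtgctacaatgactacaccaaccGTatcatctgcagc

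The 150 aligned coding bases without a gap that differ most, with 25 differences in capitals, start at coding base 300 of Csf2rb and 303 of Csf2rb2 and are shown as the stretch where the copies are least alike.
Csf2rb: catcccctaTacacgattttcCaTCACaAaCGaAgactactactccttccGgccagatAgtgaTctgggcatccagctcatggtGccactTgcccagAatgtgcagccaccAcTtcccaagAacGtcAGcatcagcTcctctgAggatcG
Csf2rb2: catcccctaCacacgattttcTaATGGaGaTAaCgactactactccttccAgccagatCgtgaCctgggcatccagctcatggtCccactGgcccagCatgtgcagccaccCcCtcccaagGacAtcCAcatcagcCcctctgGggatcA

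Il6ra, at chr3:89869324-89913162 on the minus strand, encodes the chain that binds interleukin 6 and has no signalling tail of its own. It was the 1 gene of the 10 called lower. Aged mice ranged from 84.2 to 137 CPM (median 96.9 CPM) and young mice from 150 to 190 CPM (median 154 CPM). Every aged mouse was below every young mouse, with aged mouse 4 highest of the aged and young mice 5 and 6 highest of the young. The means of 103 ± 18.5 and 163 ± 16.4 CPM gave a log2 fold change of -0.66 (SE 0.105; edgeR, adjusted p = 0.000258), and -0.59 with young mice 5 and 6 left out (edgeR, adjusted p = 0.000952).

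Il6st, at chr13:112464070-112506860 on the plus strand, encodes gp130, the signalling chain that interleukin 6, leukaemia inhibitory factor, oncostatin M and their relatives share. It had by far the lowest level of the 10 genes, with 15 to 116 counts per library. Aged mice ranged from 3.53 to 11.7 CPM (median 5.86 CPM) and young mice from 2.72 to 6.29 CPM (median 3.43 CPM). The ranges overlapped: 3 aged mice, of which aged mouse 1 was the highest, lay above all young mice, and young mice 5 and 6 were the highest of the young. The log2 fold change of 0.60 (SE 0.307) was not called (edgeR, adjusted p = 0.120), with a 95% interval from -0.08 to 1.29. Without young mice 5 and 6 it was 1.02 and was called (edgeR, adjusted p = 0.0341), and without aged mouse 1 alone it was 0.35 (edgeR, adjusted p = 0.316). With all 3 of these mice left out it was 0.78 and was called (edgeR, adjusted p = 0.0388).

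Ifngr1, at chr10:19591958-19610225 on the plus strand, encodes the chain that binds interferon gamma. Aged mice ranged from 121 to 159 CPM (median 147 CPM) and young mice from 82.4 to 125 CPM (median 103 CPM). The ranges met at 1 point, where aged mouse 7 lay below young mouse 1, and the other 5 aged mice were above all young mice. The level was 103 ± 15.6 CPM in young and 144 ± 12.8 CPM in aged mice, which gave a log2 fold change of 0.49 (SE 0.0966; edgeR, adjusted p = 0.00108). It was 0.36 with young mice 5 and 6, the lowest of the young, left out (edgeR, adjusted p = 0.00527).

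Ifngr2, at chr16:91547094-91564007 on the plus strand, encodes the second chain of the interferon gamma receptor, which is needed for signalling. Its level was 171 ± 14.2 CPM in aged and 171 ± 16.6 CPM in young mice, with ranges of 149 to 187 CPM and 143 to 182 CPM. Young mice 5 and 6 were again the lowest of the young, and the ranges overlapped over most of their width. The log2 fold change was 0.01 (SE 0.0775), with a 95% interval from -0.16 to 0.18 (edgeR, adjusted p = 0.938).

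Ifnar1, at chr16:91485215-91510522 on the plus strand, encodes the type I interferon receptor chain that binds the kinase Tyk2. Aged mice ranged from 93.4 to 111 CPM (median 107 CPM) and young mice from 103 to 123 CPM (median 108 CPM). Of the aged mice 2 lay below all young mice and none above them. The log2 fold change was -0.07 (SE 0.0643) and was not called (edgeR, adjusted p = 0.357). This value depended on the treatment of gene length and library scale: it was 0.28 after a correction for gene length (edgeR, adjusted p = 0.00816) and -0.16 without TMM factors (edgeR, adjusted p = 0.0398).

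Ifnar2, at chr16:91372783-91405587 on the plus strand, encodes the type I interferon receptor chain that binds interferon tightly and carries Jak1. Aged mice ranged from 119 to 136 CPM (median 127 CPM) and young mice from 96.9 to 115 CPM (median 108 CPM). Every aged mouse was above every young mouse, though the highest young mouse, number 1, was close to the lowest aged mouse, number 4. The means of 128 ± 6.50 and 107 ± 7.64 CPM gave the smallest difference of the 5 called genes, a log2 fold change of 0.26 (SE 0.0624; edgeR, adjusted p = 0.00388). It was 0.18 with young mice 5 and 6, again the lowest of the young, left out (edgeR, adjusted p = 0.0325).

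Ifnar2, Ifnar1 and Ifngr2 lie in 1 cluster of 191225 bases on chromosome 16 with Il10rb, which encodes a chain of the interleukin 10 receptor and starts 647 bases after the end of Ifnar2. Il10rb had a log2 fold change of 0.20 (SE 0.0906; edgeR, adjusted p = 0.0775), beside the 0.26 of Ifnar2, and the difference between them was not tested. After the length correction Ifnar1 (0.28) and Ifnar2 (0.29) were both called higher. The span also holds A930006K02Rik, which was not among the genes tested. None of the 10 receptor genes shared an exon with another gene on the same strand.

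**Figure D2:**
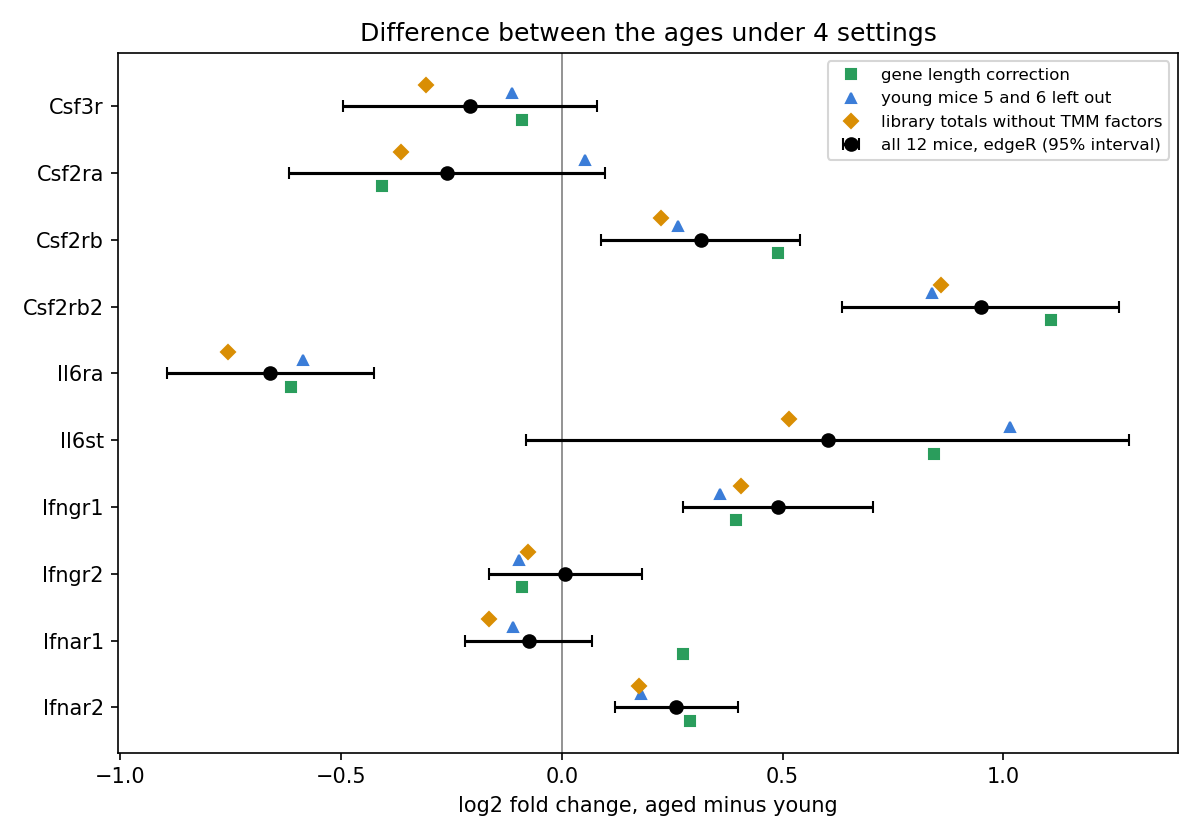
Log2 fold change of each receptor gene, aged minus young (horizontal axis), by edgeR over all 12 mice with its 95% interval, and the value after gene length correction, with young mice 5 and 6 left out, and without TMM factors. Csf2rb, Csf2rb2, Il6ra, Ifngr1 and Ifnar2 keep their side of 0 in all 4, while Ifnar1 moves from -0.07 to 0.28 with the length correction.

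The difference between the ages followed gene length across the table, and the 10 genes span 1849 bases of exon (Csf2ra) to 7013 bases (Ifnar1). Among the 500 tested genes closest in length to each, the median log2 fold change was -0.31 around Ifnar1, -0.16 around Csf2rb2, -0.02 around Il6ra and Ifnar2, 0.08 around Ifngr1 and 0.17 around Csf2ra. After the length correction the 5 called genes kept their calls, with log2 fold changes of 0.49 for Csf2rb, 1.11 for Csf2rb2, -0.61 for Il6ra, 0.40 for Ifngr1 and 0.29 for Ifnar2. Il6st was then also called, at 0.84 (edgeR, adjusted p = 0.0379), so that with Ifnar1 6 of the 10 were higher, where 18.4% of all genes tested were called higher and 16.5% lower.

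Per kb of exon the levels fell in much the same order at both ages. In aged mice the means ran from Csf3r (280 CPM per kb) through Csf2ra (163), Csf2rb (116), Ifngr2 (82.8), Ifngr1 (68.5), Ifnar2 (40.3), Il6ra (30.9), Csf2rb2 (18.2) and Ifnar1 (15) to Il6st (1.16). Between neighbours in this order the ranges over mice overlapped for Csf2ra and Csf2rb, Csf2rb and Ifngr2, Ifngr2 and Ifngr1, Ifnar2 and Il6ra, and Csf2rb2 and Ifnar1. Within the same mouse the first of each pair was still the higher in all 6 aged mice, except for Ifnar2 over Il6ra (5 of 6) and Csf2rb2 over Ifnar1 (4 of 6).

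In young mice the order was Csf3r (324 CPM per kb), Csf2ra (195), Csf2rb (93.2), Ifngr2 (82.4), Ifngr1 (48.9), Il6ra (48.8), Ifnar2 (33.7), Ifnar1 (15.8), Csf2rb2 (9.45) and Il6st (0.749). Ranges overlapped for Csf3r and Csf2ra, Csf2rb and Ifngr2, and Ifngr1 and Il6ra, and the last pair was in this order in 4 of 6 mice. Il6ra stood above Ifnar2 in all young mice and Csf2rb2 below Ifnar1 in all young mice, and both pairs had the opposite order of means in aged mice. Of the genes tested, 98.7% had a lower level per kb than Csf3r in young mice, and 6.36% had a lower level than Il6st. Spread between mice was widest for Il6st (coefficient of variation 48.4% in aged and 37.8% in young mice).

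**Figure D3:**
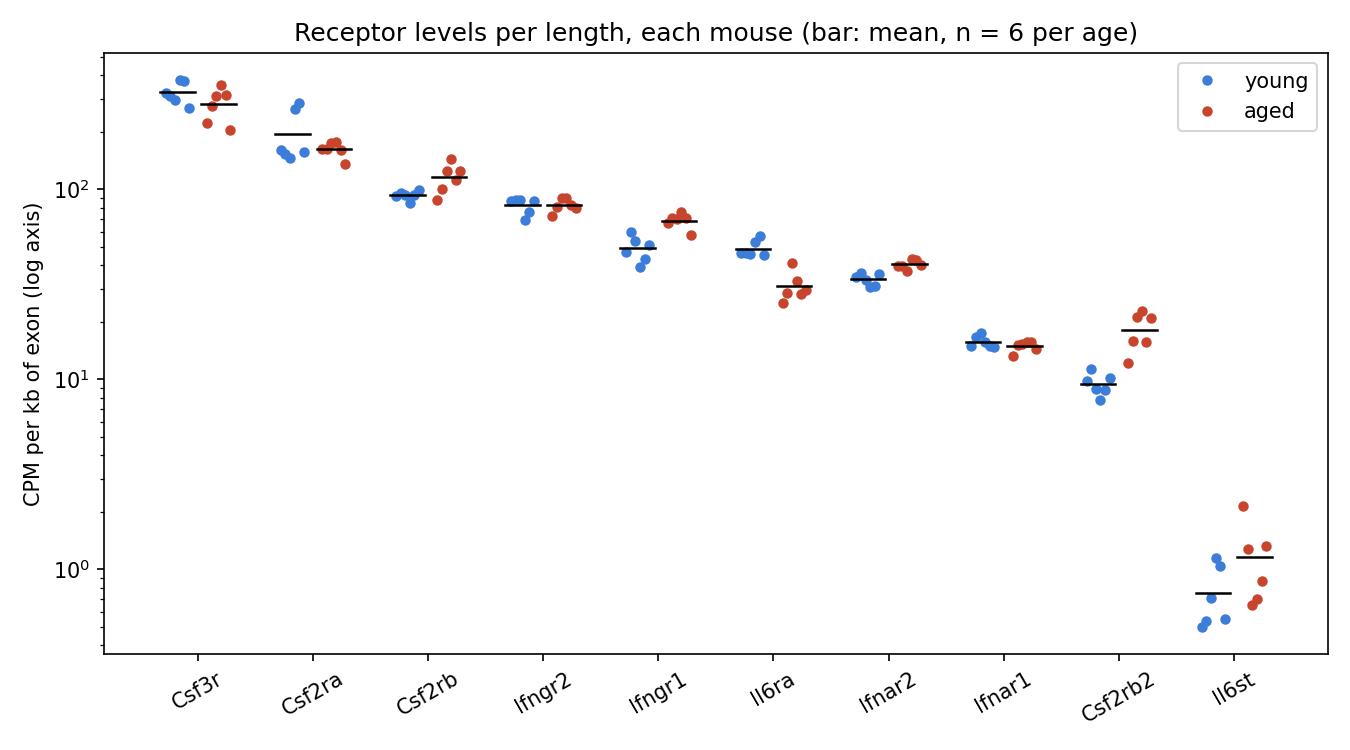
CPM per kb of exon of the 10 receptor genes (vertical log axis), 1 point per mouse, with the mean as a bar, for 6 young and 6 aged mice and ordered by the young mean. Csf3r lies at the top with means of 324 and 280 CPM per kb, Il6st at the bottom with means of 0.749 and 1.16, and Csf2rb2 crosses from below to above Ifnar1 by its means.

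A ratio of 2 chains within a mouse does not depend on how libraries are scaled. The 6 pairs are chains that work together, the 2 copies, and Csf2rb2 with Csf2ra, which serve different receptors of the same family. For each pair the mean log2 ratio of the levels per kb was compared between aged and young mice by an exact two-sided permutation test. It ran over the 924 ways to regroup the mice, which cannot give a p below 0.00216, with adjustment over the 6 pairs.

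In the GM-CSF and interleukin 3 family, the ratio of Csf2rb2 to Csf2rb was -2.68 ± 0.123 in aged and -3.30 ± 0.138 in young mice, without overlap, a difference of 0.62 (adjusted exact permutation p = 0.00325). The ratio of Csf2rb2 to Csf2ra also did not overlap, at -3.19 ± 0.368 and -4.31 ± 0.579, a difference of 1.12 (adjusted exact permutation p = 0.00325). The ratio of Csf2rb to Csf2ra was -0.51 ± 0.281 in aged and -1.01 ± 0.482 in young mice. This difference of 0.50 (adjusted exact permutation p = 0.0498) was 0.19 with young mice 5 and 6 left out (adjusted exact permutation p = 0.224). It passed the threshold without aged mouse 1 or without young mouse 1, 2 or 9, and missed it in each of the other 8 cases with 1 mouse left out. In the interferon gamma receptor, Ifngr1 to Ifngr2 was -0.27 ± 0.132 in aged and -0.76 ± 0.114 in young mice, without overlap, a difference of 0.49 (adjusted exact permutation p = 0.00325). The Ifngr1 chain was therefore closer in level to Ifngr2 in every aged mouse than in any young mouse.

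In the type I interferon receptor, Ifnar1 to Ifnar2 was -1.43 ± 0.0975 in aged and -1.09 ± 0.137 in young mice, without overlap, a difference of -0.34 (adjusted exact permutation p = 0.00325). Ifnar1 has 7013 bases of exon and Ifnar2 3175, and after the length correction the difference was -0.02 (adjusted exact permutation p = 0.766). In the interleukin 6 receptor, Il6ra to Il6st was 4.79 ± 0.848 in aged and 6.02 ± 0.376 in young mice, a difference of -1.23 (adjusted exact permutation p = 0.0130). Aged mice 4 and 5 reached the young range and the other 4 aged mice did not, and aged mouse 1 had the lowest ratio, 3.53.

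**Figure D4:**
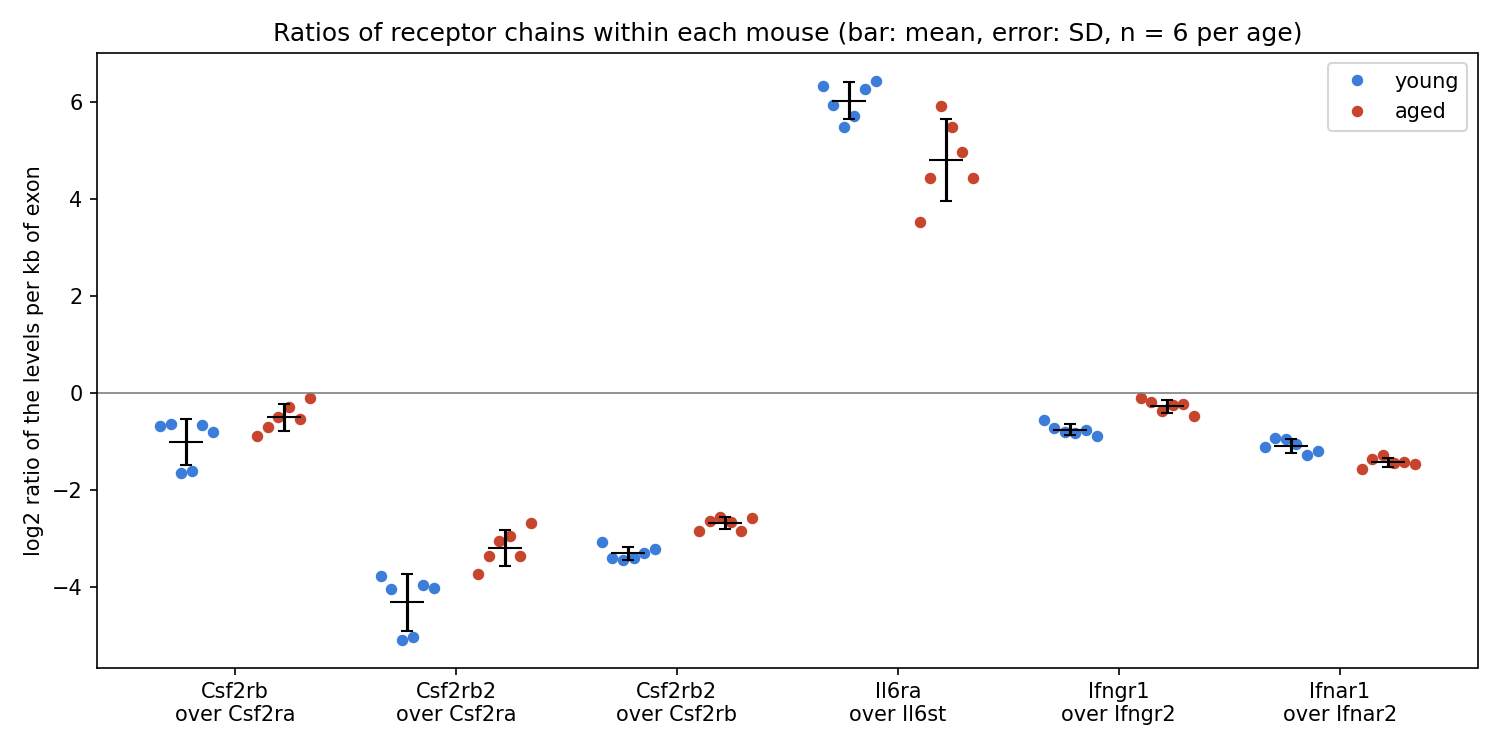
Log2 ratio of the levels per kb of 2 receptor chains in each mouse (vertical axis), for 6 pairs, with the mean as a bar and the SD as error over 6 mice an age. Aged and young points do not overlap for Csf2rb2 over Csf2ra, Csf2rb2 over Csf2rb, Ifngr1 over Ifngr2 and Ifnar1 over Ifnar2, and young mice 5 and 6 are the 2 lowest points of both ratios to Csf2ra.

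The 300 bases around the transcription start (250 before it and 50 after) were matched by symbol for 9 of the 10 genes, all but Csf2rb, in RefSeq on GRCm38.p6. Both strands were searched for 4 short motifs: the STAT element TTCNNNGAA, the interferon element (GAAA and GAAA with any 2 bases between), the PU.1 motif GAGGAAGT and the C/EBP motif TTGCNNAA. The STAT element occurred once each in Csf2rb2, Ifnar1 and Ifnar2 and in 8.3% of all 32851 promoters of this length. The PU.1 motif occurred in Csf2rb2, on the reverse strand and apart from the STAT element, and in 3.2% of all. The interferon element (3.44% of all) and the C/EBP motif (10.8% of all) did not occur in the 9 windows. The RefSeq start of Csf2rb2 lies 118 bases upstream of the start in the count table, so its window lies outside the gene as counted. The promoters with a match are shown with the matches in capitals, for comparison of a gene with a large rise, one with a small rise and one that was not called.
Csf2rb2, chr15:78305672-78305971, minus strand: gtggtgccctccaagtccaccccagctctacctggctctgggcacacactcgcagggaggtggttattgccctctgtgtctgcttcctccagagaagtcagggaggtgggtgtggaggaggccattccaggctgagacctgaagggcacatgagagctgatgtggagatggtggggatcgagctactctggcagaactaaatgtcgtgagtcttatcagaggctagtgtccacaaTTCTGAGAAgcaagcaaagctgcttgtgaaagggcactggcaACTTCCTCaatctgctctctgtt
Ifnar2, chr16:91372533-91372832, plus strand: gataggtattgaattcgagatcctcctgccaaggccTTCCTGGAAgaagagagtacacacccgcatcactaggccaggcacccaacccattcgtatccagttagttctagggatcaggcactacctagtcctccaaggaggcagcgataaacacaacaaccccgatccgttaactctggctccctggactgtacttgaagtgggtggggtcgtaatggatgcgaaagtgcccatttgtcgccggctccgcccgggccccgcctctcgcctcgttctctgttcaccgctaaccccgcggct
Ifnar1, chr16:91484965-91485264, plus strand: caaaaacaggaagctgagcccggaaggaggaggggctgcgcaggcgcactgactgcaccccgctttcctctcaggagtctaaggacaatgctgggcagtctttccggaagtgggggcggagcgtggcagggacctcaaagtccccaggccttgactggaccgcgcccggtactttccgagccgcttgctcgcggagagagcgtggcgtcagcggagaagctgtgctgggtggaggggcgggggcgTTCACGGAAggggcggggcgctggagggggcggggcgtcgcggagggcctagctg

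The genes whose levels followed a called receptor most closely over the 12 mice were found among 6591 genes of at least 10 CPM, by the root mean square difference of centred log2 CPM. They were Lrg1 (0.152) and Scamp1 (0.176) for Csf2rb2, Tmod3 (0.0844) and Pam (0.0956) for Csf2rb, Tnrc18 (0.0763) and Prrc2b (0.0879) for Il6ra, Pigs (0.0615) and Lin7c (0.0809) for Ifngr1, and Smu1 (0.0433) and Commd8 (0.0497) for Ifnar2. The SD of the receptor's own log2 CPM over the mice was 0.52 for Csf2rb2 and 0.15 for Ifnar2, so the closeness of a match is to be read against it. Centring was over both ages together, so a like difference between the ages counts towards a match. The log2 fold change was 0.94 for Lrg1, -0.71 for Tnrc18 and 0.26 for Smu1, and matches within an age were not tested.

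Other receptor chains of the same classes showed rises and falls. Of 34 such genes 14 were tested, of which 5 were higher and 2 lower in aged mice, with a median log2 fold change of 0.27. This count and those of the lists below are to be read against all genes tested, 22.4% higher and 23% lower. The largest rise was that of Il13ra1, a chain of the interleukin 13 and interleukin 4 receptor, which went from 37.6 ± 13 CPM in young to 124 ± 44.4 CPM in aged mice with no overlap (log2 fold change 1.73, SE 0.264; edgeR, adjusted p = 0.000194). Il3ra, the alpha chain that works with both beta chains, was at 13.2 ± 1.69 CPM in aged and 9.28 ± 1.87 CPM in young mice (log2 fold change 0.49, SE 0.135; edgeR, adjusted p = 0.00836). It has a length of 1394 bases, and after the length correction it was at 0.25 and not called (edgeR, adjusted p = 0.168). Crlf2 (0.58), Il4ra (0.46) and Il22ra2 (1.14) were the other genes called higher. Il22ra2 was at a low level, 1.94 ± 0.948 CPM in aged and 0.89 ± 0.263 CPM in young mice, with as few as 4 counts in a young mouse. The largest fall was that of Ifnlr1, the chain that binds interferon lambda, which went from 208 ± 36.9 CPM in young to 127 ± 11.7 CPM in aged mice with no overlap (log2 fold change -0.70, SE 0.104; edgeR, adjusted p = 0.000154). Il10ra, which binds interleukin 10, was lower at -0.50 (SE 0.148; edgeR, adjusted p = 0.0136). With young mice 5 and 6 left out neither Il10ra (-0.43; edgeR, adjusted p = 0.0662) nor Il22ra2 (1.03; edgeR, adjusted p = 0.0564) was called.

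Most ligand genes were not detected in these libraries. The list of 16 ligand genes covers these and closely related receptors, except for Csf1, which acts on a receptor of another kind. Of the 16, 11 had 0 counts in every mouse, among them Csf3, Il6 and Ifng, and 3 were tested. A count of 0 allows up to 3 counts, which was 0.188 to 0.643 CPM depending on the library and covers counting error only. Osm, which encodes the gp130 ligand oncostatin M, was at 98.7 to 148 CPM in aged and 128 to 316 CPM in young mice (log2 fold change -1.03, SE 0.204; edgeR, adjusted p = 0.00114). Csf1, the macrophage colony-stimulating factor, whose receptor is not among the 10, had a log2 fold change of -0.50 (SE 0.195; edgeR, adjusted p = 0.0497), and Il27 had -0.26 (SE 0.225; edgeR, adjusted p = 0.363). The call of Csf1 was lost without aged mouse 1, 4, 5 or 7 or without young mouse 1, 2 or 10, where its log2 fold change was -0.35 or larger in size, and held in 12 of 23 alternatives.

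Of the 11 Janus kinases and STATs, which carry the signal, 1 was higher and 4 were lower, beside 22.4% and 23% of all genes tested. The median log2 fold change of the list was -0.16. Jak3 was at 19.3 ± 3.35 CPM in young and 38.7 ± 13.9 CPM in aged mice (log2 fold change 0.99, SE 0.197; edgeR, adjusted p = 0.00113). Stat4 was at 81.3 ± 7.0 CPM in young and 54.7 ± 4.15 CPM in aged mice with no overlap (log2 fold change -0.57, SE 0.0746; edgeR, adjusted p = 6.68e-05). The kinases that bind the 10 receptor chains were lower by less, with log2 fold changes of -0.20 for Jak1, -0.31 for Jak2 and -0.36 for Tyk2, while Stat3 (-0.16), Stat5a (0.08) and Stat5b (0.02) were not called. After the length correction Jak1 (0.02), Jak2 (-0.11) and Tyk2 (-0.17) were no longer called, Stat5b was called higher (0.25), and in all 3 of the 11 were higher and 1 lower, which was Stat4. Tyk2 also lost its call with young mice 5 and 6 left out (-0.18, with an edgeR adjusted p = 0.101), and Jak1 in the paired fit over shared mouse numbers. The 11 genes are longer (median 4487 bases) than those tested as a whole (2890 bases).

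Of 18 tested inhibitors of these pathways, 2 were higher and 5 lower (median log2 fold change 0.02), beside 22.4% and 23% of all genes tested. Usp18, which restrains Ifnar2 signalling, was at 5.14 to 26.2 CPM in aged and 4.34 to 7.23 CPM in young mice (log2 fold change 0.97, SE 0.344; edgeR, adjusted p = 0.0313), and Cish, a STAT5-induced inhibitor, had 0.42 (SE 0.113; edgeR, adjusted p = 0.00813). The fall was largest for Socs7 (-0.53), which has a length of 7015 bases and was not called after the length correction (-0.18; edgeR, adjusted p = 0.210). That correction left 2 inhibitors lower, Cbl and Sh2b3. Pias2 went from -0.30 to -0.07 and lost its call, and Ptpn2 turned from -0.20 to 0.23 and was called higher (edgeR, adjusted p = 0.0298). The number lower was 3 with the libraries thinned to the smallest total, in the paired fit, and with aged mouse 1 and young mice 5 and 6 left out. Cbl, a ubiquitin ligase that turns over activated receptors, had the smallest p among them, with a log2 fold change of -0.40 (SE 0.0724; edgeR, adjusted p = 0.000598). In Usp18 aged mouse 5 had 26.2 CPM and the other aged mice 9.09 CPM or less, and without aged mouse 5 its log2 fold change was 0.46 and was not called (edgeR, adjusted p = 0.0528). The call of Usp18 was also lost without young mouse 5, 9 or 10, and neither Usp18 nor Cish was called with young mice 5 and 6 left out. Of 11 adaptors and kinases below the receptors, 2 were higher, among them Grb2 at 0.18, and 6 lower, led by Sos1 at -0.72 (SE 0.0948; edgeR, adjusted p = 6.68e-05), with Gab2, Lyn and Fes not called. The calls lay close to the threshold: without 1 mouse the number higher was 1 or 2 and the number lower 3 to 5, with 3 lower without aged mouse 2 or 6 and 1 higher without aged mouse 4, 5 or 6 or young mouse 1, 2, 5 or 6. After the length correction 0 of these 11 were higher and 1 was lower, and 0 were higher without TMM factors or without young mice 5 and 6.

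Of 16 tested target genes of the receptors, 9 were higher, 2 lower and 5 not called, with a median log2 fold change of 0.39. Among all genes tested 22.4% were higher and 23% lower. The largest rise was in the interferon-induced Ifit3, at 3.70 to 21.9 CPM in aged and 2.24 to 3.47 CPM in young mice (log2 fold change 1.37, SE 0.447; edgeR, adjusted p = 0.0211). The top value was that of aged mouse 5 and the other aged mice had 4.64 CPM or less. Without aged mouse 5 the log2 fold change was 0.60 (edgeR, adjusted p = 0.0131), below the 0.95 of Gbp2 in the same fit. Aged mouse 5 was also the highest for Ifit1 (36.1 CPM, against 13.1 CPM or less in the other aged mice), Isg15 (19.7, against 9.09 or less), Irf7 (114, against 62.4 or less) and Irf9 (156, against 96.5 or less). Leaving it out took Irf7 from 0.47 to 0.24 and ended its call (edgeR, adjusted p = 0.0726), and took Ifit1 from 1.31 to 0.76, Isg15 from 1.30 to 0.89 and Irf9 from 0.48 to 0.31, which stayed called. The number of target genes called higher was then 8. The call of Irf7 was also lost without aged mouse 2 or 6 or without young mouse 1, 2, 5, 9 or 10, and held in 9 of 23 alternatives. The call of Ifit3 was lost with limma-voom (adjusted p = 0.0781) and with young mice 5 and 6 left out (edgeR, adjusted p = 0.103), and DESeq2 gave it no adjusted p, whereas Gbp2 was called in all 23 alternatives. Gbp2, an interferon-induced GTPase, went from 12.8 ± 3.75 to 27.2 ± 8.86 CPM with no overlap (log2 fold change 1.11, SE 0.231; edgeR, adjusted p = 0.00155). Mx1, also induced by interferon, went the other way at a low level, 0.603 ± 0.609 CPM in aged and 2.0 ± 1.19 CPM in young mice (log2 fold change -1.84, SE 0.565; edgeR, adjusted p = 0.0155). Cebpb was lower (-0.43), and Irf1 (-0.01), Ifit2 (-0.08), Gbp7 (-0.29), Socs3 (0.38) and Bcl3 (-0.04) were not called. With young mice 5 and 6 left out, 4 of these genes were called higher and 1 lower, and Mx1 was no longer called (-1.12, with an edgeR adjusted p = 0.198). In that fit 32% of all genes tested were called in either direction, instead of 45.4%.

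**Figure D5:**
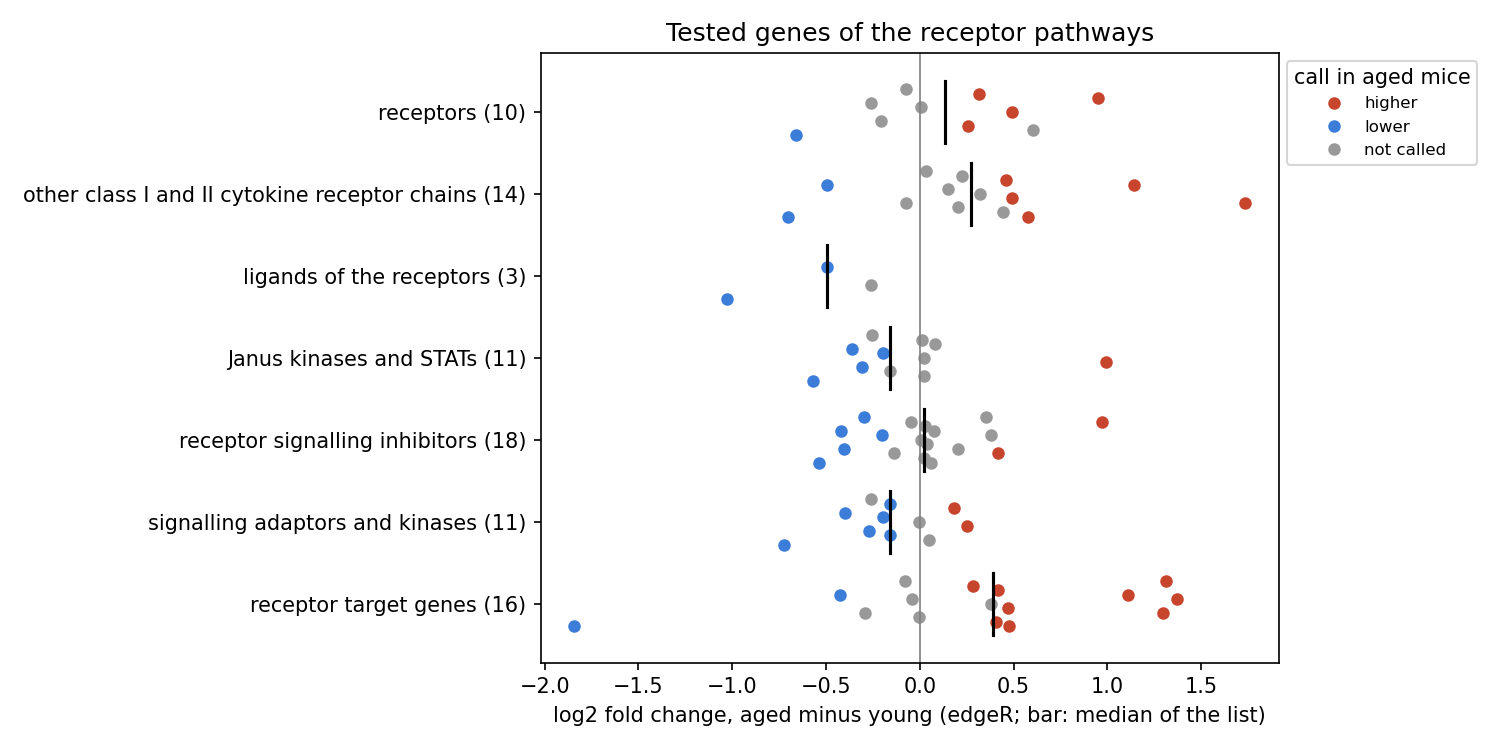
Log2 fold change by edgeR, aged minus young (horizontal axis), of every tested gene of the 10 receptors and of 6 lists of genes in their pathways, with the number tested in parentheses; red points were called higher, blue lower and grey not called, and the bar is the median of the list. The target genes have the highest median, 0.39, and the 3 tested ligands the lowest, -0.50, which is the value of Csf1, a ligand of another kind of receptor.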

How the data were processed

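RNA-seq libraries (Illumina TruSeq Stranded, paired-end, NovaSeq) of sorted M-MDSCs from 6 aged and 6 young mice were analysed. The authors deposited unnormalized counts of fragments per gene, made with featureCounts 2.0.0 over exons of a UCSC annotation of mm10, reverse-stranded, with both ends mapped, chimeric pairs excluded and mapping quality 60 as the minimum. The aligner is not given in the sources used here. Other values used were the exon lengths the authors deposited in the same table. Labels gave each library its age and mouse number.

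Genes were filtered with filterByExpr, scaled with TMM and tested with edgeR 4.0.16 (quasi-likelihood, R 4.3.3), aged against young, with Benjamini-Hochberg adjustment over the 9742 genes tested and a threshold of 0.05. Alternatives were DESeq2 1.42.0, limma-voom 3.58.1, other scalings and filters, a gene length correction, thinning, a replicate block and leaving out each mouse; leaving out young mice 5 and 6, or these and aged mouse 1, was chosen after seeing the data. Ratios of chains used log2 CPM with a prior count of 2. The script was tested on simulated data. The members and lists were chosen with earlier results of these data known. Named genes are the 10 receptors, the largest rise, largest fall and smallest p of each pathway list, members of a list outside its main call where these are 5 or fewer, the 2 most abundant genes of each marker list, and the 2 genes closest in profile to each called receptor; single defining markers and genes named beside a count were added after their values were seen.

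The file sample numbers run from 11 to 16 for young and from 17 to 26 for aged mice, so any batch along them cannot be told apart from age. Mice of one age differed by more than sampling noise (smallest chi-square per gene 1.72 over 30 pairs), so all count as separate samples, with 1 library a mouse. Mitochondrial genes and some sort markers were not analysed here, and some genes of the lists are counted but not reported singly.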

Additional observations from a re-analysis of the deposited data

How the results depend on the processing

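Csf2rb2, Il6ra, Ifngr1 and Ifnar2 kept their direction and their call in each of the 23 alternatives run, and Csf2rb did so in all 12 with 1 mouse left out. Over these alternatives the adjusted p ranged from 0.00254 to 0.239 for Csf2rb, 1.8e-08 to 0.0188 for Csf2rb2, 2.68e-07 to 0.00177 for Il6ra, 4.79e-05 to 0.0188 for Ifngr1, 0.000737 to 0.0403 for Ifnar2, 0.0341 to 0.528 for Il6st, 0.00816 to 0.95 for Ifnar1 and 0.067 to 0.601 for Csf2ra, by edgeR, limma or DESeq2. With young mice 5 and 6 left out 1392 of all genes tested were called higher instead of 2185, and 1425 when aged mouse 1 was also left out; pathway genes called higher then numbered 9 instead of 18 with the former, and pathway genes called lower 13 instead of 21 with the latter. The gene length correction left 10 pathway genes called lower, turned Ifnar1 to 0.28 and took the log2 ratio of Ifnar1 over Ifnar2 to -0.018. Without TMM factors 2 of the 10 receptors were called lower, the second being Ifnar1, and the median of all genes moved to -0.08. The log2 ratio of Csf2rb over Csf2ra was 0.19 without young mice 5 and 6, 0.27 without aged mouse 1 as well, 0.38 to 0.58 with 1 mouse left out, and 0.82 after the length correction (adjusted exact p = 0.00325). The cause of these shifts was not tested, beyond the smaller number of mice in some.

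The replicate block over the shared mouse numbers 1, 2, 5 and 6 used 8 mice and left 3 receptors called higher, Csf2rb being lost at 0.24 (edgeR, adjusted p = 0.239), with 11 pathway genes higher and 13 lower. In that fit 35.1% of all genes tested were called in either direction. Under the replicate block the log2 ratios were 0.54 (Csf2rb over Csf2ra), 1.13 (Csf2rb2 over Csf2ra), 0.59 (Csf2rb2 over Csf2rb), -1.26 (Il6ra over Il6st), 0.53 (Ifngr1 over Ifngr2) and -0.44 (Ifnar1 over Ifnar2), with adjusted exact p of 0.188 to 0.5, and 4 pairs cannot bring a ratio past the threshold. Numbers do not mark shared mice: deviations of same-numbered mice correlated at -0.25 to -0.07 over genes, and 0 of 4 aged mice matched best with its own number. Depth limits Il6st, at 15 counts in the shallowest case.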
